A study of Mus musculus with 20 samples.

Results

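The interleukin-1 family is described here through 10 genes. They are the ligands Il1a, Il1b, Il36a, Il33 and Il18, the receptor antagonist Il1rn, the signaling receptors Il1r1 and Il1rl1 with their accessory chain Il1rap, and the decoy receptor Il1r2. The genes were chosen by name, and the probesets (sets of array probes for 1 transcript) annotated to 1 of these genes alone were taken as their measurements. A gene with more than 1 probeset is represented by its brightest (by the mean of 20 arrays), with the others as a check. In all, 9 of the 10 genes had a probeset, with 16 probesets among them, of 18193 genes measured. Il1rl1, the receptor for IL-33, had none in the annotation used and was not analysed here, and Il36a is listed on the array under its older symbol Il1f6.

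Total RNA was hybridized to Affymetrix MOE430 2.0 arrays from 8 tumors of RbΔEC; Trp53ΔEC mice (k14Cre;p53loxP/loxP;pRbloxP/loxP), 7 tumors of Trp53ΔEC mice (k14Cre;p53loxP/loxP) and 5 samples of normal control skin, whose genotype the labels do not state, all on the FVB strain. The methods describe the normal control skin as wild type. Cre driven by the keratin 14 promoter deletes the floxed alleles in stratified epithelia, so the fibroblasts, vessels and blood cells of a tumor keep theirs. By histology 4 tumors were mixed (1 RbΔEC; Trp53ΔEC and 3 Trp53ΔEC), with both differentiated and undifferentiated areas. Another 5 were undifferentiated or spindle cell carcinomas (3 RbΔEC; Trp53ΔEC and 2 Trp53ΔEC; 3 undifferentiated and 2 spindle), and 6 were poorly differentiated squamous cell carcinomas (4 RbΔEC; Trp53ΔEC and 2 Trp53ΔEC). Skin was taken at 2 months and no age is given for the tumors, so age and tumor cannot be told apart. Nothing states that each tumor came from its own mouse, and the p-values therefore cover only the spread from sample to sample. Values are log2 signals after robust multi-array averaging (RMA), which puts all arrays on 1 scale. A difference of 1 is a doubling, and levels of different genes are not compared because each probeset responds in its own way.

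IL-1α and IL-1β bind the receptor IL1R1, which needs the accessory chain IL1RAP to signal through MYD88 and NF-κB, and the same accessory chain serves the receptors for IL-33 and the IL-36 ligands. Signaling is restrained by the antagonist IL1RN, which occupies IL1R1, and by the decoy receptor IL1R2, which binds IL-1 without signaling. In skin, keratinocytes hold IL-1α and pro-IL-18 in reserve and make IL-36 ligands when inflamed, myeloid cells are a major source of IL-1β, and IL-33 is a nuclear alarm protein of epithelial, endothelial and fibroblastic cells.

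Il1a and Il1b lie close together on mouse chromosome 2, with Il1rn and Il36a in a second cluster of family genes on the same chromosome. The sequences around the start sites of Il1a, Il1b and Il1rn are shown. These are 3 of the 6 members called lower in undifferentiated/spindle than in poorly differentiated tumors, as described below. Of the other members so called, Il1r2 and Il18 are not shown and Il36a had no sequence in the source used. The sequences come from RefSeq (GRCm38.p6) and run from 250 bases before to 50 after the start site. The Il1a stretch is chr2:129309923-129310222 (minus strand), the Il1b stretch chr2:129371090-129371389 (minus strand) and that of the first Il1rn start chr2:24336610-24336909 (plus strand). Capitals mark the AP-1 motif TGANTCA.
Il1a: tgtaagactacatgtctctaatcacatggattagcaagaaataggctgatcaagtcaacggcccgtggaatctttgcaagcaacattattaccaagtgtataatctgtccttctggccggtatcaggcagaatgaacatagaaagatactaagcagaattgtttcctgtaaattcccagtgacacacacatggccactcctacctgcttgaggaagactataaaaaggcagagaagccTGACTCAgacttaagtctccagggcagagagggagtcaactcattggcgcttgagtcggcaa
Il1b: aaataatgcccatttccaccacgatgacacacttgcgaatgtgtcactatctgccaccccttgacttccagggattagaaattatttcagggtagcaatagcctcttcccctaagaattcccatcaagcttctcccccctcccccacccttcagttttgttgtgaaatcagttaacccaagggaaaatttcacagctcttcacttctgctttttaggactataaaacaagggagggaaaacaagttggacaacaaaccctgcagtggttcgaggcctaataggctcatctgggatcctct
Il1rn: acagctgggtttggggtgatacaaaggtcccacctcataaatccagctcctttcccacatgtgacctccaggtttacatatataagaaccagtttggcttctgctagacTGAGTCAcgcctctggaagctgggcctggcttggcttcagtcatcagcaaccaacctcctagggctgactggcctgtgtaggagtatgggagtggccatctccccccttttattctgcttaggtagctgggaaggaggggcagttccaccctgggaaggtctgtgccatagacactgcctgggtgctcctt
Both strands were searched for AP-1, for the C/EBP motif TTGCNNAA and for the NF-κB consensus, which were found in 7.81%, 10.8% and 4.51% of 32851 RefSeq promoters of this length. Relative to the start site, AP-1 began at -12 in Il1a as TGACTCA and at -141 in Il1rn as TGAGTCA, and the Il1b stretch held none of the 3 motifs. The other Il1rn starts and the starts of Il1r2 and Il18 also held none. Among all 14 start sites of 9 members in the table, C/EBP also occurred once each at Il1r1, Il1rl1 and Il33, and the NF-κB consensus once, at Il1r1. These are matches of letters and were not tested for binding.

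Array medians lay between 5.65 and 5.75 in tumors and between 5.59 and 5.63 in skin. The 3′ minus 5′ signal of Actb, a measure of RNA integrity, was 0.24 to 0.38 in undifferentiated/spindle tumors, 0.38 to 0.66 in mixed tumors, 0.42 to 0.82 in poorly differentiated tumors and 0.50 to 1.19 in skin, and the part of this difference in any result was not tested. The floxed gene Rb1 had a median log2 signal of 7.40 (6.55 to 8.14) in RbΔEC; Trp53ΔEC tumors, 8.26 (7.85 to 8.84) in Trp53ΔEC tumors and 9.10 (8.95 to 9.26) in skin, whereas Trp53 was not analysed here. Skin also held other tissue. All 8 skeletal muscle and all 4 measured adipocyte markers passed as lower in tumors than in skin, with median log2 fold changes of -7.67 and -4.52. Of all genes, 18% passed as lower. In such bulk samples, fewer cells of a type and less RNA per cell cannot be told apart.

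Poorly differentiated carcinomas carried the high levels of the ligands Il1a, Il1b and Il36a. Relative to skin, 5 of 9 members were called higher (limma, adjusted p under 0.05) and 1 lower in poorly differentiated tumors, where 21.2% and 22% of all genes were called in those directions. In undifferentiated/spindle tumors 3 members were higher and 4 lower, against 25.7% and 23.5% of all genes, and in mixed tumors none was higher and 5 were lower, against 20.1% and 20.1%. These comparisons share the same 5 skin samples. Median log2 fold changes over the 9 members were -0.60 in mixed, -0.37 in undifferentiated/spindle and 1.69 in poorly differentiated tumors, beside -0.01, 0.02 and 0.00 over all genes. With all 15 tumors pooled, 2 members were higher and 1 was lower, against 17.7% and 18% of genes, although the classes differ among themselves for most members.

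**Figure D1:**
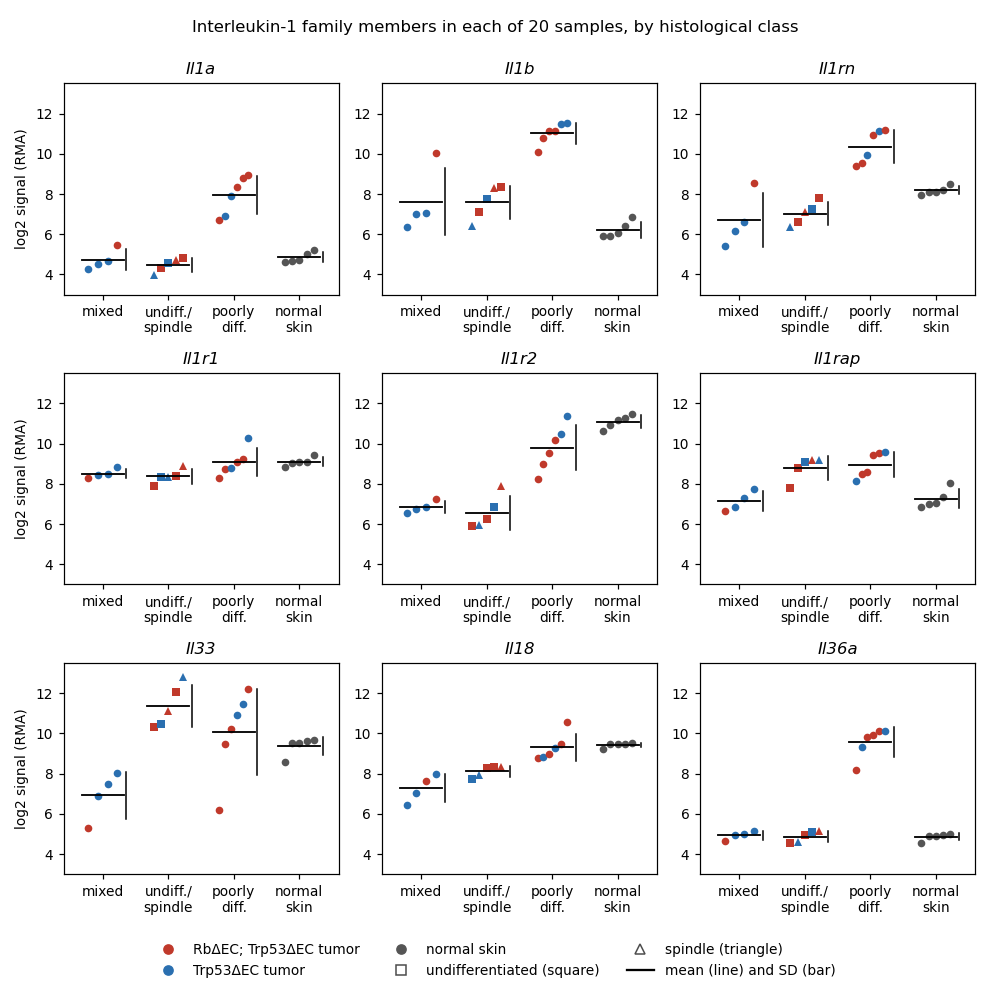
Log2 signal (RMA) of 9 family members in each of the 20 samples, by histological class (mixed, undifferentiated/spindle, poorly differentiated, normal skin), with colors for the genotype, squares for undifferentiated and triangles for spindle cell tumors; lines are means and bars SD. Il1a, Il1b and Il36a are highest in the 6 poorly differentiated tumors, while the 5 skin samples hold the highest mean of Il1r2 (11.10).

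Il1b, the secreted ligand, was far above skin in every poorly differentiated tumor. The lowest, median and highest log2 signals were 10.10, 11.12 and 11.52 in poorly differentiated tumors, against 5.89, 5.92, 6.05, 6.41 and 6.84 in the skin samples. All 6 tumors were above all skin samples, as were 14.3% of all genes, and the fold was 27.9 (log2 fold change 4.80 ± 0.26 SE, limma adjusted p = 1.32e-07). In undifferentiated/spindle tumors Il1b was at 6.41, 7.13, 7.74, 8.30 and 8.35, above skin by 1.36 ± 0.36 (adjusted p = 0.00787), with 4 of 5 tumors above every skin sample. Mixed tumors had 6.37, 6.99, 7.07 and 10.06, which did not pass against skin (1.40 ± 0.66, adjusted p = 0.122). The high value was the 1 mixed tumor of the RbΔEC; Trp53ΔEC genotype, and without it the difference was 0.59 (adjusted p = 0.109). Over all 15 tumors Il1b was higher by 2.75 ± 0.86 (adjusted p = 0.0168), with 13 above every skin sample.

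Il1a, the ligand that keratinocytes release on damage, also rose in poorly differentiated tumors. It had 6.70, 8.13 and 8.96 (lowest, median, highest) in poorly differentiated tumors, against 4.62, 4.67, 4.74, 5.04 and 5.22 in skin, so that the groups did not overlap (8.43-fold, 3.07 ± 0.39, adjusted p = 8.26e-05). Undifferentiated/spindle tumors held 3.96, 4.31, 4.58, 4.74 and 4.84, overlapping skin (-0.37 ± 0.18, adjusted p = 0.118). Mixed tumors held 4.26, 4.50, 4.67 and 5.48, overlapping skin (-0.13 ± 0.25, adjusted p = 0.706). The probeset of Il1a averaged 5.66 over all arrays, above 33.1% of genes, so values near 5 lie low on this array. No detection call was used here, so these low levels were not shown to be above background. They limit the size of the fold over skin and of the differences between tumor classes given below.

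Il36a, a ligand made by inflamed epidermis, separated the poorly differentiated tumors from all other samples. Its log2 signals there were 8.18, 9.88 and 10.12 (lowest, median, highest), against 4.57, 4.89, 4.89, 4.95 and 5.01 in skin. The fold over skin was 26.5 (4.73 ± 0.31, adjusted p = 4.47e-07), with no overlap. The skin level is below the median of all values (5.68) and no detection call was used here, so it was not shown to be above background, and the size of this fold and of that by grade given below is limited by that level. Undifferentiated/spindle tumors had 4.55, 4.62, 4.95, 5.12 and 5.14 and mixed tumors 4.66, 4.94, 4.98 and 5.17, so both classes overlapped skin, with 95% intervals of the difference from -0.30 to 0.33 and from -0.23 to 0.39. The pooled comparison of 15 tumors with skin gave 1.92 ± 1.05 and did not pass (adjusted p = 0.169). It passed with an unequal-variance t-test (adjusted p = 0.0222) and in a limma fit on all 20 samples (adjusted p = 1.55e-06).

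Il1rn, the antagonist, rose in 1 class and fell in the others. Poorly differentiated tumors had 9.40, 10.42 and 11.20 (lowest, median, highest), against 7.97, 8.10, 8.12, 8.22 and 8.51 in skin, a 4.49-fold rise with no overlap (2.17 ± 0.34, adjusted p = 0.000342). Undifferentiated/spindle tumors had 6.34, 6.63, 7.10, 7.25 and 7.81, all below skin (-1.16 ± 0.24, adjusted p = 0.00207, and 0.0578 in a fit on all 20 samples). In mixed tumors the values were 5.41, 6.18, 6.61 and 8.57, and the difference of -1.49 ± 0.53 had an adjusted p of 0.0492. That call was lost on leaving out any of skin samples 1 to 5 or Trp53ΔEC tumors 3, 5 or 7 (adjusted p 0.0768 to 0.119), and was at -2.12 (adjusted p = 0.000382) without the RbΔEC; Trp53ΔEC mixed tumor 4, the one above skin. Another Il1rn probeset gave the same falls (-1.25 in undifferentiated/spindle and -1.22 in mixed tumors), whereas the remaining one gave -0.06 and -0.38 and did not pass (adjusted p = 0.902 and 0.473 over all probesets). All 3 Il1rn probesets rose in poorly differentiated tumors, by 2.17 to 2.64.

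Il1r1, the signaling receptor, had 8.28, 8.94 and 10.29 (lowest, median, highest) in poorly differentiated tumors, against 8.84, 9.04, 9.11, 9.11 and 9.44 in skin (-0.03 ± 0.29, adjusted p = 0.938, 95% interval -0.67 to 0.60). It was lower in undifferentiated/spindle tumors, at 7.89, 8.33, 8.34, 8.38 and 8.91 (-0.74 ± 0.18, adjusted p = 0.00477), and in mixed tumors, at 8.28, 8.42, 8.49 and 8.82 (-0.60 ± 0.15, adjusted p = 0.012). The call in mixed tumors was lost in a fit on all 20 samples (adjusted p = 0.10) and with the median of the probesets (-0.28, adjusted p = 0.0981). All mixed tumors and 4 of 5 undifferentiated/spindle tumors were below every skin sample. Pooled over tumors the difference of -0.42 did not pass (adjusted p = 0.22), and it did without the poorly differentiated Trp53ΔEC tumor 4 (-0.53, adjusted p = 0.023).

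Il1rap, the chain shared by the IL-1, IL-33 and IL-36 receptors, was higher than skin in poorly differentiated and in undifferentiated/spindle tumors. Poorly differentiated tumors had 8.13, 9.01 and 9.56 (lowest, median, highest), against 6.86, 7.01, 7.07, 7.34 and 8.04 in skin (1.69 ± 0.31, adjusted p = 0.000984). Undifferentiated/spindle tumors had 7.79, 8.77, 9.10, 9.18 and 9.20 (1.54 ± 0.30, adjusted p = 0.00124). All 6 poorly differentiated and 4 of 5 undifferentiated/spindle tumors were above every skin sample. Mixed tumors, at 6.66, 6.85, 7.31 and 7.75, overlapped skin (-0.12 ± 0.29, adjusted p = 0.759). The pooled call (1.16 ± 0.44, adjusted p = 0.0445) was lost on leaving out any of 13 samples, with adjusted p from 0.0543 to 0.109: skin 2 to 5, Trp53ΔEC tumors 1, 2 and 6, and RbΔEC; Trp53ΔEC tumors 1, 2 and 5 to 8. A further pair of Il1rap probesets rose in the same classes, by 1.89 and 2.20 in poorly differentiated and 2.19 and 1.84 in undifferentiated/spindle tumors. The remaining Il1rap probesets, like the other Il1r1 probeset, lay between 2.74 and 4.20 in all samples, near the bottom of the array, and passed in none of the comparisons.

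Il1r2, the decoy receptor, was lower than skin in all 3 tumor classes. It had 6.56, 6.75, 6.87 and 7.27 in mixed tumors, 5.88, 5.94, 6.23, 6.86 and 7.90 in undifferentiated/spindle tumors, and 8.26, 9.86 and 11.35 (lowest, median, highest) in poorly differentiated tumors, against 10.64, 10.94, 11.16, 11.28 and 11.47 in skin. Mixed tumors were 18.9-fold lower than skin (-4.24 ± 0.20, adjusted p = 8.97e-07) and undifferentiated/spindle tumors 23.2-fold lower (-4.54 ± 0.35, adjusted p = 1.32e-06), both without overlap, as 17.8% and 18.2% of all genes were on the low side. Poorly differentiated tumors were lower by 2.46-fold (-1.30 ± 0.46, adjusted p = 0.0383), with 5 of 6 below every skin sample. That call was lost without any of skin samples 1 to 4 or RbΔEC; Trp53ΔEC tumors 6, 7 or 8 (adjusted p 0.0563 to 0.0826). It was also lost with t-tests of unequal or equal variance (adjusted p = 0.0758 and 0.0727). Over all tumors 14 of 15 lay below every skin sample (-3.16 ± 0.77, adjusted p = 0.00315).

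Il33, the nuclear alarm cytokine, ranged from 5.31 to 12.80 over the tumors (SD 2.34). Undifferentiated/spindle tumors had 10.33, 10.46, 11.14, 12.05 and 12.80, against 8.57, 9.51, 9.53, 9.61 and 9.67 in skin, 3.95-fold higher with no overlap, as for 19.8% of all genes (1.98 ± 0.44, adjusted p = 0.00321, and 0.0659 in a fit on all 20 samples). Mixed tumors had 5.31, 6.89, 7.49 and 8.03, all below skin (-2.44 ± 0.50, adjusted p = 0.00407, and 0.0659 with an unequal-variance t-test after Benjamini-Hochberg adjustment). Poorly differentiated tumors ranged from 6.18 to 12.20 with a median of 10.57 and did not pass (0.70 ± 0.86, adjusted p = 0.546). The low value was RbΔEC; Trp53ΔEC tumor 7, without which the class passed as higher than skin (1.48, adjusted p = 0.0236). The fibroblast markers averaged 9.02 to 11.87 in mixed, 11.89 to 12.75 in undifferentiated/spindle and 8.88 to 12.34 in poorly differentiated tumors and 12.71 to 13.04 in skin. Endothelial markers averaged 5.75 to 6.83, 6.90 to 8.05, 5.66 to 7.18 and 7.06 to 7.45 in the same order, and the part of either cell type in the Il33 values was not tested.

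Il18, stored by keratinocytes as a precursor, had 8.78, 9.13 and 10.56 (lowest, median, highest) in poorly differentiated tumors, against 9.22, 9.46, 9.46, 9.46 and 9.53 in skin (-0.11 ± 0.28, adjusted p = 0.773). It was 7.75, 7.94, 8.30, 8.33 and 8.35 in undifferentiated/spindle tumors (-1.29 ± 0.13, adjusted p = 1.3e-05) and 6.46, 7.02, 7.65 and 8.01 in mixed tumors (-2.14 ± 0.28, adjusted p = 0.000323). Both of these classes lay below every skin sample. The pooled difference of -1.05 did not pass (adjusted p = 0.0703), and passed without RbΔEC; Trp53ΔEC tumor 2, which held the highest value (-1.20, adjusted p = 0.0154). It also passed in limma with arrays centred on their medians (adjusted p = 0.0465) and in a limma fit on all 20 samples (0.00176). An unequal-variance t-test gave an adjusted p of 0.00477.

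**Figure D2:**
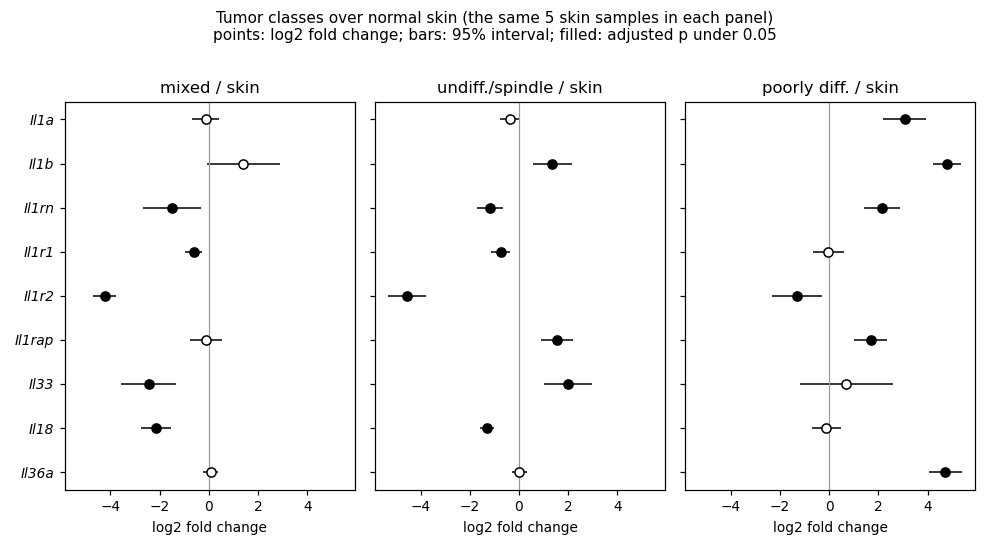
Log2 fold change of each member in mixed, undifferentiated/spindle and poorly differentiated tumors over the same 5 skin samples, with 95% intervals and filled points for an adjusted p under 0.05. Il1r2 lies left of 0 in all panels, at -4.24, -4.54 and -1.30, whereas Il1b and Il36a stand furthest right in poorly differentiated tumors.

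The histological grades were then compared within the tumors. Between undifferentiated/spindle and poorly differentiated tumors 6 of 9 members were lower and none higher, where 9.9% and 12.7% of all genes were called lower and higher. For all 6, every undifferentiated/spindle tumor was below every poorly differentiated one, as for 6.89% of genes. The differences were -4.71 ± 0.32 for Il36a (26.2-fold, adjusted p = 2.14e-06), -3.44 ± 0.41 for Il1a (adjusted p = 0.000118) and -3.44 ± 0.37 for Il1b (adjusted p = 5.81e-05), each of the last pair 10.9-fold. The inhibitors also fell, Il1rn by 3.33 ± 0.39 (adjusted p = 0.000114) and Il1r2 by 3.24 ± 0.54 (adjusted p = 0.00133), and Il18 fell by 1.18 ± 0.29 (adjusted p = 0.013). The other Il1rn probesets gave -2.70 and -3.47. Il1r1 (-0.70 ± 0.31, adjusted p = 0.137), Il1rap (-0.15 ± 0.34, adjusted p = 0.812, 95% interval -0.89 to 0.60) and Il33 (1.28 ± 0.94, adjusted p = 0.385) did not pass. The median over the members was -3.24, beside 0.01 over all genes. Leaving out any 1 tumor kept 6 calls, but counting the 4 mixed tumors as poorly differentiated left none.

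Mixed tumors were set against the other classes in comparisons added after the values were seen. Against poorly differentiated tumors 7 members were lower and none higher, with 6.95% and 7.39% of genes called. Il36a was lower by -4.65 ± 0.36 (adjusted p = 6.67e-05), Il1rn by -3.66 ± 0.61 (adjusted p = 0.00442) and Il1b by -3.40 ± 0.64 (adjusted p = 0.0077), and the list also held Il1a, Il1r2, Il1rap and Il18, all 7 without overlap, as for 6.77% of genes. For Il1b the groups nearly touched, with the RbΔEC; Trp53ΔEC mixed tumor 4 at 10.06 and the lowest poorly differentiated tumor at 10.10. Without the RbΔEC; Trp53ΔEC mixed tumor 4 the Il1rn and Il1b differences were -4.29 and -4.21. Il33 did not pass (-3.14 ± 1.06, adjusted p = 0.0765), and passed without RbΔEC; Trp53ΔEC tumor 7 (-3.93, adjusted p = 0.00832). It also passed in a limma fit on all 20 samples (adjusted p = 0.0113). Against undifferentiated/spindle tumors 2 members were lower in mixed tumors and none higher (6.53% and 4.44% of genes). These were Il33, 21.5-fold lower (-4.43 ± 0.66, adjusted p = 0.00409), and Il1rap, 3.17-fold lower (-1.67 ± 0.34, adjusted p = 0.0159), again without overlap, as for 8.18% of genes. Il18 (-0.85 ± 0.30, adjusted p = 0.111) passed only without Trp53ΔEC tumor 3 (-1.09, adjusted p = 0.0441).

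Genotype made no difference that could be called. Between RbΔEC; Trp53ΔEC and Trp53ΔEC tumors none of the 9 members passed with limma, none reached an unadjusted p under 0.05, and 0.011% and 0.022% of all genes were called higher and lower (5.29% at an unadjusted p under 0.05). The methods' t-test, with equal or unequal variances, called none either. Il1b ranged from 7.13 to 11.13 (median 10.08) in RbΔEC; Trp53ΔEC tumors and from 6.37 to 11.52 (median 7.07) in Trp53ΔEC tumors, and Il1a from 4.31 to 8.96 (median 6.09) and from 3.96 to 7.92 (median 4.58). The log2 differences were 1.39 (95% interval -0.59 to 3.38) and 1.26 (-0.57 to 3.09), and both intervals hold 0. The genotypes hold unequal numbers of each class, with 4 of 8 and 2 of 7 tumors poorly differentiated. Among poorly differentiated tumors alone, Il1b was at 10.10 to 11.13 in 4 RbΔEC; Trp53ΔEC and at 11.49 to 11.52 in 2 Trp53ΔEC tumors, the opposite order (-0.72, adjusted p = 0.765). Il1rn, Il1r2 and Il36a also turned negative there, at -0.25, -1.68 and -0.22.

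The grade difference was present in both genotypes. For Il1b, undifferentiated/spindle tumors had 7.13, 8.30 and 8.35 and poorly differentiated tumors 10.10 to 11.13 among RbΔEC; Trp53ΔEC samples, and 6.41 and 7.74 against 11.49 and 11.52 among Trp53ΔEC samples. For Il36a the same pairs were 4.55 to 5.14 against 8.18 to 10.10 and 4.62 to 5.12 against 9.35 to 10.12. The interaction of grade and genotype passed for no member and, in all, for 0 of 18193 genes by limma (7.05% had an unadjusted p under 0.05). The values furthest from 0 were 1.95 ± 0.95 for Il1r2 (unadjusted p = 0.0694, adjusted p = 0.709) and 1.57 ± 0.67 for Il1b (unadjusted p = 0.0441, adjusted p = 0.70).

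**Figure D3:**
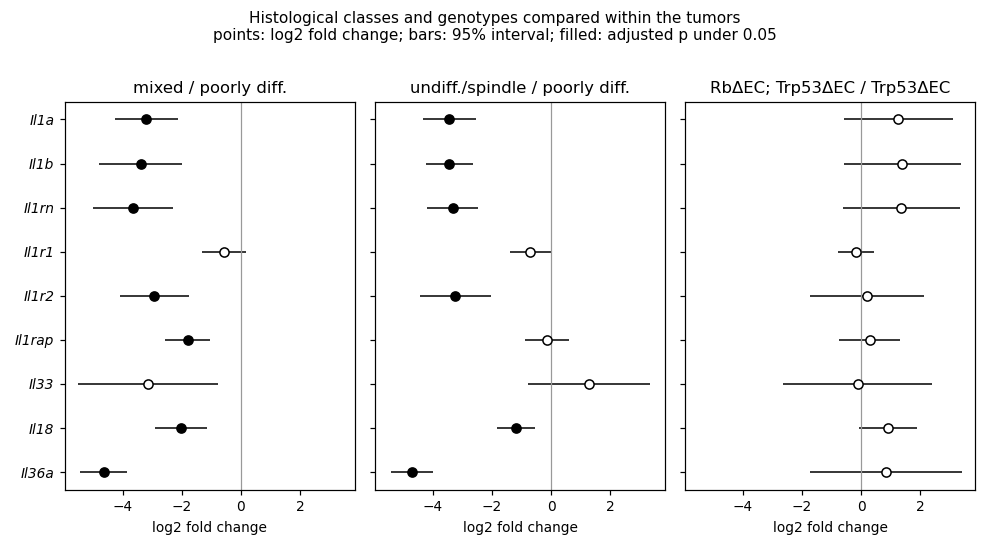
Log2 fold changes with 95% intervals between tumor classes (mixed over poorly differentiated, undifferentiated/spindle over poorly differentiated) and between genotypes (RbΔEC; Trp53ΔEC over Trp53ΔEC); filled points have an adjusted p under 0.05. Il36a stands at -4.65 and -4.71 by class, and all intervals of the genotype panel include 0.

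The difference of ligand and inhibitor was taken within each sample. It has no absolute meaning, since 2 probesets are involved, but can be compared between samples. Il1rn minus Il1b was -1.58, -1.49, -0.46 and -0.20 in mixed tumors, -1.72, -1.19, -0.50, -0.08 and 0.68 in undifferentiated/spindle tumors, and -1.56, -0.91 and 0.81 (lowest, median, highest) in poorly differentiated tumors, against 1.67, 1.69, 1.92, 2.23 and 2.30 in skin. With these probesets all 15 tumors were below all 5 skin samples, and the 3 tumor classes overlapped each other. The separation depended on the Il1rn probeset. With the one that did not fall in undifferentiated/spindle tumors, the difference reached 0.89 in RbΔEC; Trp53ΔEC tumor 5, above 2 of the 5 skin samples (0.52 to 1.57), and 14 of 15 tumors were below all skin samples. With the other probeset, tumors ran from -3.36 to 0.07 and skin from 0.73 to 1.57. This check was added after the values were seen. Il1r2 minus Il1r1 ran from -2.40 to 1.72 over the tumors and from 1.80 to 2.36 in skin, again with no tumor reaching skin, and here poorly differentiated tumors (-0.13 to 1.72) lay above the mixed (-2.26 to -1.02) and undifferentiated/spindle ones (-2.40 to -1.01). Il1rn minus Il1a overlapped, at 0.62 to 4.20 in tumors and 2.75 to 3.55 in skin. No test was made of these differences.

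**Figure D4:**
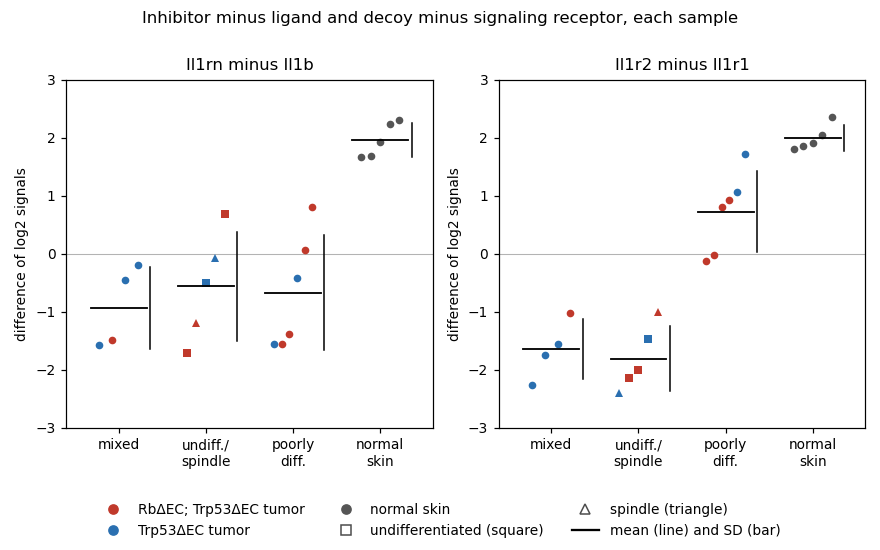
Difference of log2 signals within each sample, Il1rn minus Il1b on the left and Il1r2 minus Il1r1 on the right, by class, with means (lines) and SD (bars). Every tumor lies below the lowest skin sample, 1.67 on the left and 1.80 on the right, but on the left 1 tumor reaches the skin values with another Il1rn probeset.

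Of 11 further ligands and receptors, 4 were higher and 1 lower in poorly differentiated tumors than in skin, led by Il36g (3.78, adjusted p = 8.63e-07), Il36b (3.19, adjusted p = 8.94e-05) and Il18rap, an IL-18 receptor chain (1.57, adjusted p = 0.000134). Between undifferentiated/spindle and poorly differentiated tumors 5 were lower and none higher, led by Il36g (-5.39, adjusted p = 6.68e-07), the IL-36 antagonist Il36rn (-4.22, adjusted p = 1.54e-05) and Il36b (-3.71, adjusted p = 6.82e-05), with a median over the list of -0.28. Il36rn was also below skin in undifferentiated/spindle (-3.37, adjusted p = 6.71e-07) and mixed tumors (-2.75, adjusted p = 0.00615), as was the IL-36 receptor Il1rl2 (-2.23, adjusted p = 0.000109, and -1.46, adjusted p = 0.000527). In mixed tumors 1 of the 11 was above skin and 5 below, against 20.1% and 20.1% of all genes. In undifferentiated/spindle tumors 4 were above skin and 5 below, against 25.7% and 23.5%. Poorly differentiated tumors had 21.2% of all genes above and 22% below skin. By grade, 12.7% of all genes were called higher and 9.9% lower.

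Of 10 measured inflammasome and processing genes, which mature IL-1β and IL-18, 4 were higher and none lower in poorly differentiated tumors than in skin. The largest changes were in Mefv, which encodes pyrin (1.44, adjusted p = 0.00565), the DNA sensor Aim2 (1.22, adjusted p = 0.0266) and the protease Casp1 (1.03, adjusted p = 0.00492). In undifferentiated/spindle tumors 3 were lower than in poorly differentiated ones, Nlrp10 (-4.71, adjusted p = 1.84e-05), the adaptor Pycard (-1.84, adjusted p = 0.000263) and Casp1 (-1.81, adjusted p = 0.00357). The 1 that was higher was Gsdmd, the pore protein, named after its value was seen (1.37, adjusted p = 0.00144). Mixed tumors had 5 of the 10 below skin and none above, led by Pycard (-2.43, adjusted p = 0.0176) and Nlrp10 (-2.23, adjusted p = 0.0473). Undifferentiated/spindle tumors had 4 of the 10 above skin and 2 below, with a median of 0.33, against 25.7% and 23.5% of all genes. Beside the other counts, 21.2% and 22% of all genes were called higher and lower in poorly differentiated tumors than in skin. In mixed tumors both shares were 20.1%, and by grade they were 12.7% and 9.9%.

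Of the 14 measured adaptors and kinases below the receptors, 4 were above and 1 below skin in poorly differentiated tumors, where 21.2% and 22% of all genes were called, with Map3k7, the kinase TAK1, at 1.51 (adjusted p = 6.02e-05), Tab3, a partner of TAK1, at 0.66 (adjusted p = 0.000894) and Myd88, the receptor adaptor, at 0.66 (adjusted p = 0.000408). Between undifferentiated/spindle and poorly differentiated tumors 5 were lower and none higher, led by the inhibitory kinase Irak3 (-1.76, adjusted p = 0.0273), and the median was -0.29. There 9.9% and 12.7% of all genes were called lower and higher. Against skin, undifferentiated/spindle tumors had 1 above and 6 below, where 25.7% and 23.5% of all genes were called.

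Of 18 genes that IL-1 is known to induce, 15 were higher and none lower in poorly differentiated tumors than in skin, with a median of 2.35. They included the neutrophil chemokine Cxcl2 (11.32 ± 0.63 in poorly differentiated tumors and 3.48 ± 0.19 in skin, SD, a difference of 7.84, adjusted p = 4.15e-09), whose skin level is near the bottom of the array and was not shown to be above background, the iron-binding lipocalin Lcn2 (6.34, adjusted p = 8.85e-06) and Ptgs2, the cyclooxygenase of prostaglandin synthesis (6.03, adjusted p = 5.17e-06). Undifferentiated/spindle tumors had 10 above and 1 below skin (median 0.72) and mixed tumors 7 above and none below (median 0.93). Against poorly differentiated tumors, undifferentiated/spindle ones had 13 of the 18 lower (median -1.86), led by Cxcl2 (-5.81, adjusted p = 7.52e-05), Lcn2 (-5.57, adjusted p = 0.0012) and the acute-phase gene Saa3 (-4.35, adjusted p = 0.00063). The single gene that was higher was the monocyte chemokine Ccl2 (2.26, adjusted p = 0.000663). With the genotypes compared, none of the 18 passed. Among all genes, 21.2% were called higher and 22% lower in poorly differentiated tumors than in skin. The shares were 25.7% and 23.5% in undifferentiated/spindle and 20.1% and 20.1% in mixed tumors. By grade they were 12.7% and 9.9%.

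Markers of several cell types moved with these results. Over all genes, 21.2% were called higher in poorly differentiated tumors than in skin. By grade 12.7% were higher and 9.9% lower. In mixed and undifferentiated/spindle tumors, 20.1% and 23.5% of all genes were called lower than in skin. The 7 wound keratinocyte markers, such as Krt6b (9.22, adjusted p = 8.36e-11), were all higher in poorly differentiated tumors than in skin and all lower in undifferentiated/spindle than in poorly differentiated tumors. Their mean log2 level was 7.15 to 9.10 in mixed, 5.44 to 8.86 in undifferentiated/spindle and 13.41 to 13.86 in poorly differentiated tumors, and 6.97 to 7.82 in skin. All 9 basal and 8 of 9 differentiated keratinocyte markers were also lower in undifferentiated/spindle than in poorly differentiated tumors. Against skin, all 9 differentiated markers were lower in mixed (median -5.26) and in undifferentiated/spindle tumors (median -5.43), as were 5 and 8 of the 9 basal markers. Of 8 neutrophil markers 6 were higher in poorly differentiated tumors than in skin and 3 lower in undifferentiated/spindle than in poorly differentiated tumors, with mean levels of 4.49 to 5.76 in mixed, 4.51 to 5.10 in undifferentiated/spindle and 5.32 to 7.53 in poorly differentiated tumors, and 4.60 to 4.76 in skin. Macrophage markers went the other way, with 7 of 10 higher and none lower in undifferentiated/spindle than in poorly differentiated tumors. They averaged 8.02 to 9.27 in mixed, 11.10 to 11.69 in undifferentiated/spindle and 7.79 to 10.96 in poorly differentiated tumors, and 9.81 to 10.59 in skin. The neutrophil means in skin and undifferentiated/spindle tumors lie below the median of all values (5.68) and were not shown to be above background. The part of these cell types in the levels of Il1a, Il1b, Il1rn, Il1r2, Il18 and Il36a was not tested.

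**Figure D5:**
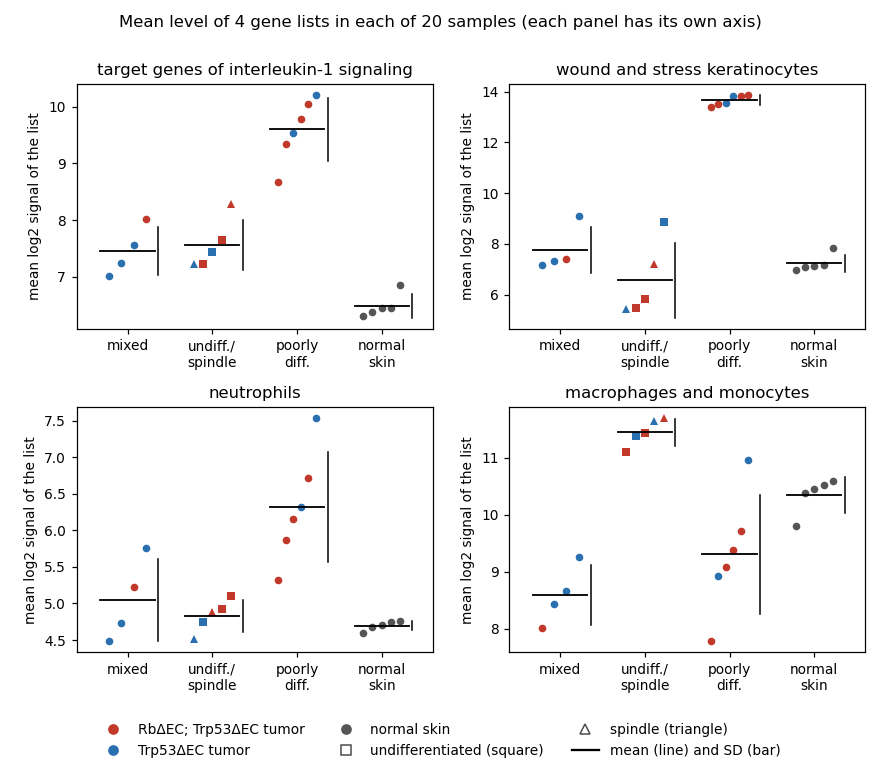
Mean log2 signal of 4 gene lists in each of the 20 samples by class (targets of IL-1 signaling, wound and stress keratinocytes, neutrophils, macrophages and monocytes), with means (lines) and SD (bars) and a separate axis in each panel. The 6 poorly differentiated tumors are highest for the targets (8.68 to 10.21) and wound keratinocytes (13.41 to 13.86), and the 5 undifferentiated/spindle tumors are highest for macrophages (11.10 to 11.69).

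Genes whose pattern over the 15 tumors was most like that of each member with an SD of 1 or more were found by the root mean square difference after centring each gene on its own mean. For Il36a these were Il36g (0.48 log2 units), the amino acid transporter Slc6a14 (0.54) and the epidermal lipase Lipm (0.56). For Il1a they were Cyp3a13 (0.49), Cysrt1 (0.50) and the nuclease Trex2 (0.52). For Il1b they were the myeloid receptor Clec4e (0.67), Acod1, which makes itaconate in myeloid cells (0.73), and Il1rn (0.83), while Il1rn was nearest to Acod1 (0.73), Pla2g4e (0.79) and Nfkbiz (0.80). Il1r2 was nearest to Olfm4 (0.54), the histamine-forming enzyme Hdc (0.55) and Retnla (0.59), and Il18 to Ccdc71l (0.50), Bicd2 (0.51) and Guca2a (0.52). For Il33 (SD 2.34) the nearest were Abcb1b at 1.36 and Vegfd and Ecm1 at 1.37. The difference is not scaled to a gene's SD, which was 1.01 for Il18 and 2.42 for Il36a.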

How the data were processed

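RNA from 15 skin tumors and 5 normal skin samples was measured on Affymetrix MOE430 2.0 arrays, 1 per sample. The authors deposited log2 values made with RMA, per the submitters' processing notes, with a version not given in the sources used here. The deposited log2 values ran from 2.34 to 14.72 and were used unchanged. The number of arrays limits the precision.

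The table held 45101 probesets, of which 45037 were tested after dropping 64 controls of the array. GEO's platform annotation, updated through RefSeq, gave 1 symbol for 34945, several for 932 and none for 9160, and 204 had a gene ID outside the RefSeq table. The probeset with the highest mean over 20 arrays stood for each of 18193 genes. Groups were compared with limma 3.58.1 (R 4.3.3) on the compared samples only, with Benjamini-Hochberg adjusted two-sided p-values over all genes, called under 0.05, and 95% intervals. The fits were tested on simulated data. Python 3.11.15, pandas 2.3.3, numpy 2.4.6, scipy 1.17.1 and matplotlib 3.10.9 served for the summaries and plots.

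The members and gene lists were chosen with earlier results of these data known. All members are named, with up to 3 genes of each list that passed with the largest change, and the 3 nearest patterns of members with an SD of at least 1. The comparisons of mixed with other tumors were chosen after seeing the data. Alternatives covered other probesets, centring, quantile normalization, a filter on low values, adjustment over all probesets, a variance trend, the methods' t-test, a fit on all samples, samples left out, the replicate number as a block, covariates, the place of mixed tumors and the methods' thresholds. No label pairs same-numbered samples, and 3 of 17 same-number pairs correlated above 0.1.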

Additional observations from a re-analysis of the deposited data

Results flagged for a closer look

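In 4 of 54 groups of values examined, 1 sample stood far from the rest of its group by Dixon's criterion, which chance gives in about 1 in 20 groups. Il33 was 8.57 in normal skin 4, against 9.51 to 9.67 in the other skin samples. Il18 was 9.22 in normal skin 1, against 9.46 to 9.53. Il36a was 4.57 in the same normal skin 1, against 4.89 to 5.01. Il1r1 was 10.29 in Trp53ΔEC tumor 4, a poorly differentiated carcinoma, against 8.33 to 8.82 in the other Trp53ΔEC tumors.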

How the results depend on the processing

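Apart from leave-one-out, 759 values of single members kept direction and side of the threshold, 42 lost and 7 gained a call and 31 changed sign. Tumors over skin called 3 members, and 5 with the unequal-variance t-test and 6 in 1 fit on all 20 samples. At the methods' threshold of 3e-07, applied here to limma's adjusted p per gene, 0 were called. The methods used that threshold with a t-test, and a further test, on probesets. Mixed tumors over skin called 5, and 3 with the median of probesets or the unequal-variance t-test. The latter also gave 4 of 7 for mixed over poorly differentiated and 1 of 2 for mixed over undifferentiated/spindle tumors. The 6 grade calls became 0 with mixed tumors counted as poorly differentiated. The causes were not tested.

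Among called results the sign changed only with other probesets near the bottom of the array: Il1rap in poorly differentiated tumors over skin (-0.034), Il1r1 in mixed tumors over skin (0.038) and Il1rap in mixed over poorly differentiated tumors (0.146). The other sign changes were in results without a call. With other probesets, Il1rap was 0.533, 0.2, 0.119 and 0.112 (median of probesets 0.2) in mixed tumors over skin and 0.306, 0.059 and 0.164 by grade. Between genotypes Il1rap was -0.056 and -0.216 and Il1r1 0.011, Il1r1 was 0.063 for mixed over poorly differentiated and Il1rn 0.029 for mixed over undifferentiated/spindle tumors. Centring arrays lowered the median of all genes by up to 0.114 against skin, and gave -0.015 for Il1rn in tumors over skin, -0.036 and -0.058 for Il36a in mixed and undifferentiated/spindle tumors over skin (-0.007 with quantile normalization) and -0.001 for Il1b in mixed over undifferentiated/spindle tumors. By grade, Il1rap was 0.578 with mixed tumors counted as poorly differentiated and Il33 -0.686 with them counted as undifferentiated/spindle. Between genotypes, poorly differentiated tumors alone gave -0.722 for Il1b, -0.249 for Il1rn, -1.678 for Il1r2 and -0.219 for Il36a, and histology as a covariate -0.46 for Il1r2, -0.287 for Il1rap and -0.169 for Il36a.

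Leaving out 1 sample turned the sign only of results without a call. Il1rn ran from -0.127 to 0.286 in tumors over skin, Il1r1 from -0.277 to 0.125 in poorly differentiated tumors over skin, Il1a from -0.381 to 0.028 and Il1rap from -0.328 to 0.07 in mixed tumors over skin, and Il36a from -0.058 to 0.096 in undifferentiated/spindle tumors over skin. By grade, Il1rap ran from -0.314 to 0.106. Between genotypes, Il1r1 ran from -0.27 to 0.076, Il1r2 from -0.117 to 0.784 and Il33 from -0.584 to 0.502. For mixed over undifferentiated/spindle tumors, Il1a ran from -0.013 to 0.397, Il1b from -0.772 to 0.457, Il1rn from -0.959 to 0.095 and Il36a from -0.018 to 0.155. The interaction of grade and genotype ran from -0.929 to 0.086 for Il1a, from -0.022 to 1.502 for Il1r1, from -0.158 to 0.435 for Il18 and from -0.213 to 0.614 for Il36a.

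Whether same-numbered samples pair could not be told from the data, where 5 of 19 correlated best with their own number. The highest correlations were between tumors 1, both spindle (0.628), and tumors 6, both poorly differentiated (0.64). Shared histology and pairing therefore cannot be told apart. With the replicate block, 1 member (Il1r2) was called in tumors over skin, Il1rn was -0.546, and 0 were called between genotypes, as without it. No paired analysis was possible for grade because the classes share too few numbers.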

Other observations

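Other cell type lists also differed between classes. Endothelial markers were higher in undifferentiated/spindle than in poorly differentiated tumors for 4 of 7 genes and lower for none, with a median log2 difference of 1.02. Of all genes, 12.7% were called higher and 9.9% lower there. Mixed tumors had 10 of 10 macrophage markers and 4 of 7 endothelial markers below undifferentiated/spindle tumors, where 6.53% of all genes were lower. T cell markers were lower in mixed tumors than in skin for 6 of 7 genes, against 20.1% of all genes. In poorly differentiated tumors 1 of 7 was lower than in skin, no more than the 22% of all genes. Of 8 Langerhans and dendritic cell markers, 5 were lower in mixed tumors, 5 in undifferentiated/spindle tumors and 4 in poorly differentiated tumors than in skin. The shares of all genes called lower were 20.1%, 23.5% and 22% in the same order. In poorly differentiated tumors 1 of the 8 was higher than in skin, where 21.2% of all genes were. None of these lists held a gene called between the genotypes.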
